A study of Mus musculus with 4 samples.

Results

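The genes of the mitochondrial respiratory chain that are carried in the nucleus were followed through the immune cells of a mouse melanoma. They were chosen by symbol: every gene in the table whose name begins as a subunit of complex I (Nduf), complex II (Sdh), complex III (Uqcr), complex IV (Cox4 to Cox8) or the ATP synthase (Atp5) was taken, whatever its level. This gave 83 of 12584 genes. They were 38 genes of complex I, 4 subunits and 4 assembly factors (Sdhaf1 to Sdhaf4) of complex II, 8 genes of complex III, 15 of complex IV and 14 of complex V, the ATP synthase. Ndufa4 and Ndufa4l2 were counted with complex I by their names, although the Ndufa4 protein is now known as a subunit of complex IV.

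Droplet single-cell RNA sequencing with probes on fixed cells (10x Flex) had been run on live CD45+ cells sorted from YUMM1.7 OVA melanomas grown in Rag2-/- mice, which lack their own T and B cells. The tumours came from RTT cells, which are resistant to BRAF-targeted therapy, and every group received OT-1 T cells as adoptive cell transfer (ACT), with harvest 72 h later. There were 4 groups. CTRL tumours were RTT cells carrying mCherry. IRF3/7 tumours were RTT cells made to express Irf3 and Irf7, transcription factors that switch on type I interferon. COX2i tumours were RTT mCherry cells in mice given celecoxib, an inhibitor of the prostaglandin-making enzyme COX2. COX2i + 5-AZA tumours were the same cells in mice given celecoxib and 5-azacytidine, which lowers DNA methylation. Each group was 1 library made from a pool of 3 tumours, so no spread between tumours could be measured and no test between conditions was possible. The interval given with each value below covers counting error only.

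The respiratory chain passes electrons from NADH through complex I, or from succinate through complex II, to ubiquinone, and then through complex III and cytochrome c to complex IV, which hands them to oxygen. Complexes I, III and IV pump protons across the inner mitochondrial membrane, and the ATP synthase lets them back to make ATP. Complex II is also an enzyme of the citric acid cycle and the only one with no subunit from mitochondrial DNA. In macrophages the balance between this chain and glycolysis is known to shift with activation, and inflammatory macrophages make itaconate, which inhibits complex II, and nitric oxide, which inhibits complex IV. Several subunits of complex IV exist in more than 1 form, each from its own gene.

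The libraries held 8953 cells (CTRL), 6329 (IRF3/7), 9133 (COX2i) and 10032 (COX2i + 5-AZA), with 67891118, 26356819, 78722763 and 76262645 unique molecules (UMIs). The IRF3/7 library stood apart in depth, with a median of 3168 UMIs per cell against 6040 to 7502 in the others. No cell name was shared between libraries. Of 29259 droplet barcodes, 4830 occurred in more than 1 library, each with a different probe barcode. The deposited annotation put the cells in 17 classes. How doublets were treated was not given in the sources used here, and none were removed for these sums. The NK, CD8 T cell, dendritic, neutrophil and mast cell markers were each highest in the class of that name, monocyte markers in Infl_Mono and macrophage markers in TAM_C1q. The Myofibrobl class went against the sort, since Ptprc, which encodes CD45, was found in 18.3% of its cells and in 69.6 to 97.7% of the cells of the other classes. Most comparisons below sum the UMIs of the 3 monocyte and 6 macrophage classes (MoMac) of a library and give levels as CPM, the count divided by all UMIs of those cells and scaled to a total of 1000000 UMIs. The mix of MoMac classes differed widely: monocytes made up 1.83% of MoMac cells in CTRL, 91.3% in IRF3/7, 7.56% in COX2i and 53.2% in COX2i + 5-AZA. In such sums, more cells of a class and more RNA per cell cannot be told apart.

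The promoters are shown first because many of these genes are known to share regulators, among them NRF1, the ETS factor GABPA, YY1 and the oestrogen-related receptors (ERR). RefSeq windows on GRCm38.p6, from 250 bases before to 50 bases after the start, were at hand for 68 of the 83 genes and searched on both strands. The NRF1 core CGCATGCG was in 8 of 68 windows (11.8%), against 2.07% of the windows of all 27025 genes. The YY1 letters AAGATGGC were in 10 (14.7%, against 3.19%), the ERR letters AAGGTCA in 8 (11.8%, against 5.38%), and the ETS letters CCGGAAGT in 4 (5.88%, against 4.31%). The NRF1 core was in the windows of Ndufa8 and Ndufa11 (complex I), Uqcrc1 and Uqcr11 (complex III), Cox6a1 (complex IV) and Atp5j, Atp5k and Atp5l (ATP synthase), so genes of 4 complexes had it. The 6 stretches in which it lies wholly before the RefSeq start are printed below, on the strand of the gene and 5′ to 3′, with the core in capitals. Distances are counted from the RefSeq start. In the GENCODE annotation the genes Ndufa8, Atp5k and Atp5j begin further upstream, so that their cores lie within the gene. A match says only that these letters are present.

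Ndufa8, chr2:36049339-36049367 (-), core beginning 9 bases before the start: cgcttgcgcgtcgctggagaCGCATGCGc
Atp5k, chr5:108434421-108434468 (-), 49 bases before: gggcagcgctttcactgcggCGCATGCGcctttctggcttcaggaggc
Cox6a1, chr5:115349092-115349139 (-), 161 bases before: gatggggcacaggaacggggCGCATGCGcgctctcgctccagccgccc
Atp5l, chr9:44920956-44920992 (-), 241 bases before: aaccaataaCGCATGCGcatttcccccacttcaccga
Atp5j, chr16:84835096-84835143 (-), 147 bases before: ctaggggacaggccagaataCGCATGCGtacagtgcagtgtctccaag
Ndufa11, chr17:56717683-56717730 (+), 59 bases before: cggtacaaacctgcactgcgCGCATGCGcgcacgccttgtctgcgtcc

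The 83 genes together made up 1.35% of all MoMac UMIs in CTRL, 0.973% in IRF3/7, 1.49% in COX2i and 1.36% in COX2i + 5-AZA. As summed CPM these levels were 13515 (95% Poisson interval 13484 to 13546), 9729 (9683 to 9775), 14933 (14902 to 14963) and 13585 (13557 to 13612). The IRF3/7 library was therefore the lowest and COX2i the highest. Complex I gave 6381, 4793, 6948 and 6281 CPM in the same order, and the ATP synthase 2392, 1643, 2768 and 2469. Complex IV gave 2241, 1749, 2540 and 2486 CPM, complex III 1238, 774, 1375 and 1205, and complex II 1126, 652, 1173 and 1009. Each of these 5 sums was lowest in IRF3/7 and highest in COX2i. The Sdhaf assembly factors gave 137, 117, 128 and 135 CPM. Their intervals in CTRL (134 to 140) and COX2i + 5-AZA (132 to 137) overlapped, so neither of these 2 libraries could be placed highest. Because each gene is read by its own probes, levels of different genes cannot be ranked against each other.

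The 2 most counted members of complexes I, III, IV and V were likewise highest in COX2i. For complex I, Ndufa3 was at 347, 292, 384 and 376 CPM in CTRL, IRF3/7, COX2i and COX2i + 5-AZA, and Ndufa2 at 375, 248, 385 and 345 CPM. For complex III, the core protein gene Uqcrc1 was at 355, 221, 401 and 334 CPM and Uqcrfs1, which encodes the Rieske iron-sulphur protein, at 235, 165, 266 and 252 CPM. For complex IV, Cox7b was at 318, 237, 379 and 365 CPM. Cox5b stood apart from it, at 276, 275, 328 and 300 CPM and level in CTRL and IRF3/7. For the ATP synthase, Atp5d was at 347, 259, 393 and 358 CPM, and Atp5b, the catalytic beta subunit, at 231, 109, 325 and 277 CPM. Complex II differed: Sdhc, a membrane anchor, was highest in CTRL, at 397, 211, 385 and 338 CPM, and Sdha, the flavoprotein that oxidizes succinate, was highest in COX2i, at 289, 123, 312 and 225 CPM.

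The first comparison asks how MoMac cells differed when the tumour cells were made to express Irf3 and Irf7. A gene was called when it differed by at least 1.5-fold and had at least 200 UMIs in both libraries together, which 80 members met here. Of these, 38 were called lower and 1 higher in IRF3/7 than in CTRL. Over all 10171 genes tested, 46.2% were called lower and 12.6% higher, beside 47.5% and 1.25% of the members. The members' share of lower calls was thus close to that of genes in general, and their share of higher calls was below it. The median log2 ratio of the members was -0.54 (interquartile range -0.77 to -0.29), and that of all genes was -0.51. Relative to that median gene, 44 members were lower and 36 higher. The log2 ratio of the summed UMIs was -0.47 (-0.48 to -0.47), and it was 0.03 when libraries were scaled by the ratio of the median gene. With that scaling 6 members were called lower (Sdha, Ndufs1, Ndufc1, Atp5a1, Cox7a1 and Sdhaf3) and 3 higher (Ndufb1-ps, Ndufs4 and Sdhaf2). The share of all genes called with that scaling is not given here, so these counts cannot be set against genes in general.

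The complexes differed in these pooled sums. The log2 ratio of the sum was -0.79 for complex II, -0.68 for complex III, -0.54 for the ATP synthase, -0.41 for complex I, -0.36 for complex IV and -0.23 for the Sdhaf genes. The median over the members of each group, which gives a gene of low count the same weight, was -0.71 for complexes II and III, -0.66 for the Sdhaf genes, -0.60 for complex I, -0.50 for the ATP synthase and -0.46 for complex IV. Complexes II and III were below the median gene of -0.51 and complex IV above it by both measures, whereas complex I, the Sdhaf genes and the ATP synthase lay on opposite sides of it by the sum and by the median. Calls of lower level were made for 2 of 4 complex II subunits, 5 of 8 complex III genes, 5 of 14 ATP synthase genes, 20 of 37 complex I genes, 4 of 13 complex IV genes and 2 of 4 Sdhaf genes, beside the 46.2% of all genes. These are small counts, and those of complexes I and II and the Sdhaf genes lay near that share. Scaled by the median gene, the lower calls were 2 in complex I, 1 each in complexes II, IV and V and the Sdhaf genes and 0 in complex III. For these no share of all genes is given. Within Infl_Mono, which compares monocytes with monocytes, the sums were nearer 0: -0.41 for complex II, -0.30 for complex III, -0.28 for the ATP synthase, -0.20 for complex I and -0.13 for complex IV. The median gene of that class was nearer 0 as well, at -0.09. In cDC2 complex II did not lead, at -0.15 beside -0.15 for complex I and -0.27 for complex III. The log2 ratio of Sdha was -1.24 (-1.30 to -1.17) and that of Sdhc -0.91. The iron-sulphur subunit gene Sdhb, at 202 and 151 CPM (-0.42), and the second anchor gene Sdhd, at 238 and 168 CPM (-0.50), did not pass 1.5-fold. The genes of the beta and alpha subunits of the ATP synthase head, Atp5b (-1.08) and Atp5a1 (134 and 60.4 CPM, -1.15), and the complex I core gene Ndufs1 (65.4 and 28.0 CPM, -1.22) also fell further than the median gene. The lowest ratio of any member was that of Cox7a1, the muscle form of a complex IV subunit, at 18.2 CPM (996 UMIs) and 4.48 CPM (80 UMIs), a log2 ratio of -2.02 (-2.37 to -1.69). Sdhaf3, an assembly factor for Sdhb, fell from 10.7 to 4.03 CPM (-1.41).

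Above 0 in the same cells were 3 members, named for complexes I and II. Ndufb1-ps rose from 264 CPM in CTRL to 403 CPM in IRF3/7, a log2 ratio of 0.61 (0.57 to 0.65), and was the call of higher level. Over all cells Ndufb1-ps was not called. GENCODE lists it as a non-coding transcript of a bidirectional promoter at chr12:101968090-101977068 (GRCm38), whereas RefSeq gives the locus as Ndufb1, a complex I subunit gene, and which transcript its probes read was not settled here. Ndufs4, an accessory complex I subunit gene at chr13:114287795-114388258, was at 90.8 and 132 CPM (0.54, 0.47 to 0.62). Sdhaf2, needed to attach flavin to Sdha, was at 64.1 and 70.8 CPM (0.14). Neither passed 1.5-fold.

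**Figure D1:**
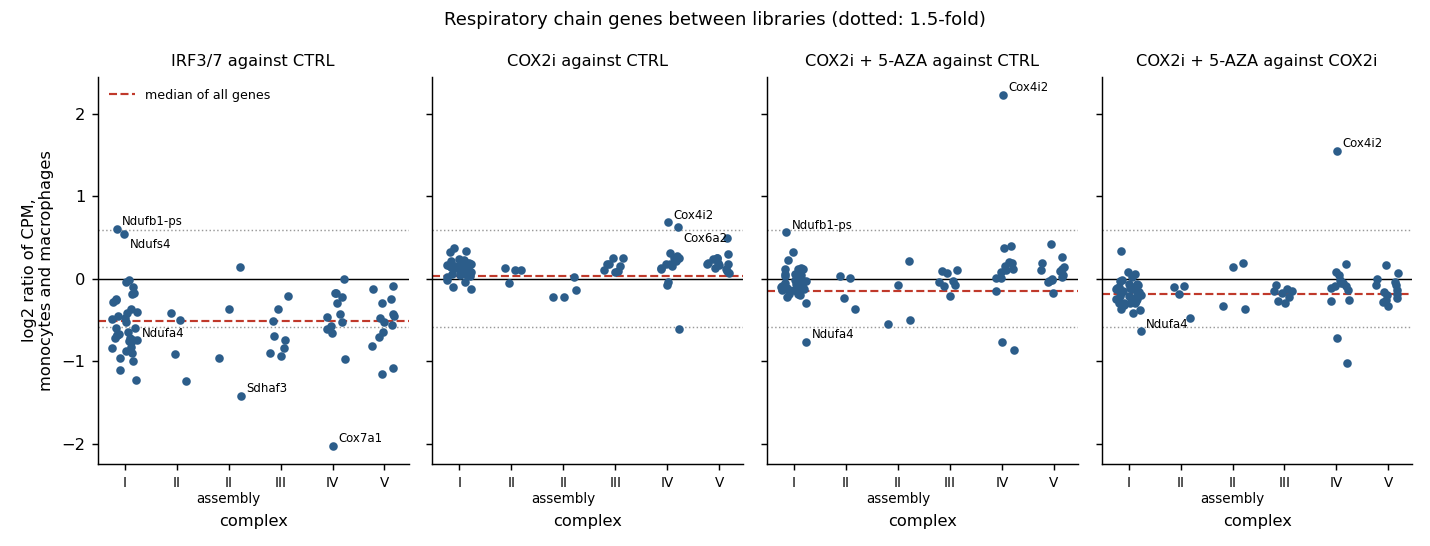
Log2 ratio of CPM in MoMac cells for each member with at least 200 UMIs, by complex, in each of the 4 comparisons of libraries; points are genes, the dashed line is the median of all genes tested and the dotted lines are 1.5-fold. The IRF3/7 panel is centred near -0.54 with Cox7a1 lowest at -2.02, and Cox4i2 is the isolated high point of COX2i + 5-AZA against CTRL at 2.23.

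In the library from celecoxib-treated mice the members lay slightly above CTRL. Of 82 members tested, 71 had a log2 ratio above 0 in COX2i against CTRL, with a median of 0.15 beside 0.03 for all 10522 genes, and 69 lay above that median gene. Only Cox6b2, the testis form of a complex IV subunit, was called lower (7.04% of all genes were), at 6.57 CPM in CTRL and 4.32 CPM in COX2i. Cox4i2 and Cox6a2 were called higher (6.31% of all genes were), at 2.45 and 3.93 CPM and at 1.46 and 2.25 CPM. Over all cells neither Cox6b2 (-0.57) nor Cox6a2 (0.49) was called, and in MoMac cells with over 2000 genes Cox6b2 was not called. The log2 ratio of the sum was 0.14, and by complex it was 0.21 for the ATP synthase, 0.18 for complex IV, 0.15 for complex III, 0.12 for complex I, 0.06 for complex II and -0.10 for the Sdhaf genes. Sdhaf4 (38.2 and 32.9 CPM) and Sdhaf1 (23.9 and 20.5 CPM), assembly factors for Sdha and Sdhb, were the next lowest members after Cox6b2, at -0.22 each. Atp5b had the largest ratio among genes of high count, at 0.49 (0.46 to 0.52). Proliferation differed beside this result: 6 of 7 proliferation genes were higher in COX2i, and TAM_cycling made up 42.9% of its MoMac cells against 19.1% in CTRL. Their part in the result was not tested beyond the comparisons within classes below.

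With 5-azacytidine added, the sum was close to CTRL, at a log2 ratio of 0.01 (0.0031 to 0.0119), while all 10508 genes had a median of -0.15. Of 81 members, with a median of -0.013, 67 lay above that median gene. Against CTRL, 3 members were called lower (16.5% of all genes) and 1 higher (7.64%). The lower ones were Cox6b2 (-0.86), Cox7a1 (-0.76) and Ndufa4 (-0.76), and the higher one was Cox4i2 (2.23). Against COX2i alone, the sum was lower at -0.14, the members' median was -0.15 and that of all 10447 genes -0.19. Relative to that median gene 48 of 82 members were higher, and with libraries scaled by the median gene the direction turned, to 0.051 for the sum and 0.037 for the median. With that scaling Cox6a2 was the lower call and Cox4i2 the higher one, with no share of all genes given beside them. On the CPM scale 3 of 82 members were called lower (16.5% of all genes) and 1 higher (7.94%), namely Cox6a2 (-1.02), Cox7a1 (-0.72) and Ndufa4 (-0.63), and Cox4i2 (1.55). Ndufb1-ps was again near the top, at 390 CPM, a log2 ratio of 0.56 against CTRL and 0.34 against COX2i. Atp5c1, the gamma subunit gene of the ATP synthase, was next after it against CTRL, at 13.6 and 18.2 CPM (0.42). By complex, the sums against CTRL were -0.16 for complex II, -0.04 for complex III, -0.02 for complex I, -0.02 for the Sdhaf genes, 0.05 for the ATP synthase and 0.15 for complex IV. These directions were not all found within classes. Monocyte_1, with 41.4% of MoMac cells in COX2i + 5-AZA, had only 44 cells in CTRL and was not compared. The part of the mix of classes was not tested. Within TAM_C1q, TAM_Spp1, TAM_cycling and Macro the sums of complexes I, II and III were all above 0, with complex II at 0.080, 0.025, 0.087 and 0.32 (the interval in TAM_Spp1 held 0). In Infl_Mono complexes I and III were above 0 and complex II was at -0.060 (-0.21 to 0.098). Over MoMac as a whole Sdha, at 225 CPM, had a ratio of -0.36 against CTRL and -0.47 against COX2i, whereas within TAM_C1q its ratio against CTRL was 0.00078 (-0.062 to 0.063). On the CPM scale all calls in these 3 drug comparisons were of complex IV genes or of Ndufa4. Scaled by the median gene, Ndufb1-ps was also called higher in COX2i + 5-AZA against CTRL.

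Since 3 of the comparisons share the CTRL library and the mix of classes differed, the sum was taken again within every class reaching 50 cells in each library compared. COX2i was above CTRL in 6 of 7 classes, with log2 ratios of 0.23 in TAM_C1q, 0.22 in TAM_Spp1, 0.18 in Infl_Mono, 0.16 in cDC2, 0.11 in TAM_cycling and 0.07 in Ctsk_Macro. The median gene in those classes lay between -0.00 and 0.09, and the sum was above it in each. The class below CTRL was Myofibrobl, at -0.05. COX2i + 5-AZA was above CTRL in 6 of 8 classes, from 0.07 in TAM_Spp1 to 0.30 in Macro, and below it in Myofibrobl (-0.04) and Neutro (-0.45). Thus the sum over MoMac showed 0.01 while the MoMac classes with enough cells in both were each above CTRL. Against COX2i, COX2i + 5-AZA was lower in 5 of 9 classes, by up to 0.17 in NK cells, and in the other 4 the interval held 0. The sum lay above the median gene of its class in 3 of the 9. For IRF3/7 against CTRL only 3 classes could be compared, and the ratio was -0.22 in Infl_Mono (4335 and 93 cells, median gene -0.09), -0.33 in Myofibrobl (-0.28) and -0.19 in cDC2 (-0.17). The sum was thus nearer 0 when Infl_Mono was compared with itself than the -0.47 over all MoMac. It lay below the median gene in Infl_Mono, where the members' median was -0.27, but 0.03 above the median gene over all MoMac. In 0 of these 3 classes was the sum above the median gene. Sdha was low within Infl_Mono too, at a log2 ratio of -0.85, and so was Atp5b, at -0.75.

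**Figure D2:**
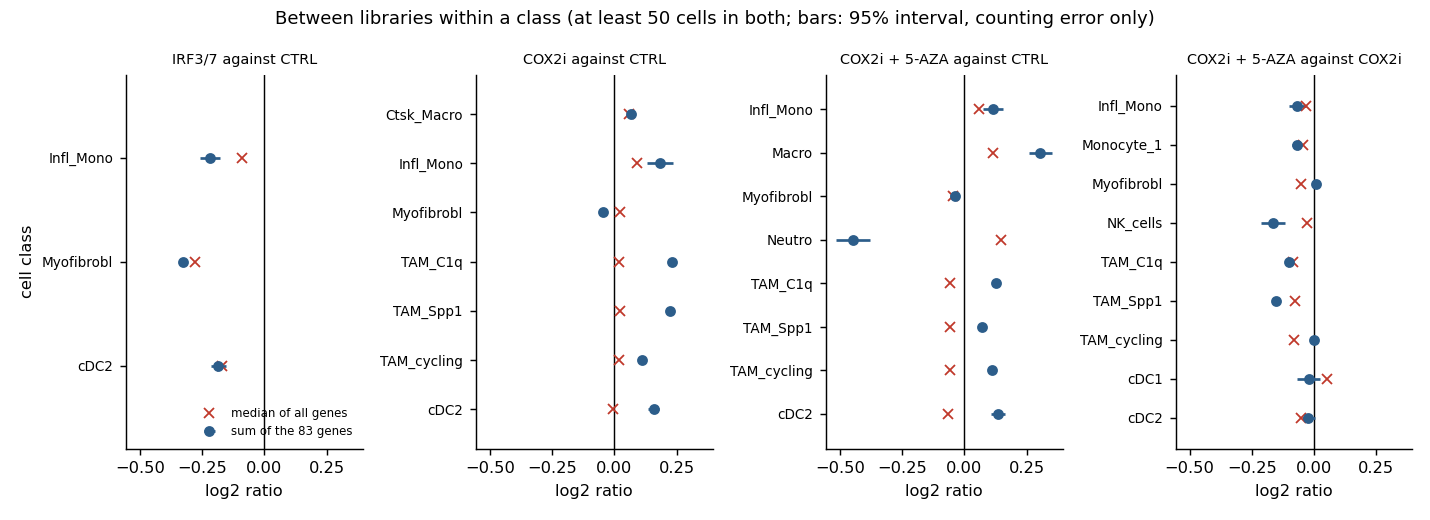
Log2 ratio of summed member UMIs within each deposited class that had 50 or more cells in each library compared, with 95% counting intervals, beside the median over all genes of that class. Points are the sums and crosses the median genes. For COX2i against CTRL the points run from -0.05 in Myofibrobl to 0.23 in TAM_C1q, and for IRF3/7 against CTRL only 3 classes could be drawn, all below 0.

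The class with the highest level of respiratory chain genes was Ctsk_Macro, a small macrophage class named for Ctsk, the gene of cathepsin K. Its sum was 25660 CPM in CTRL (380 cells) and 26859 CPM in COX2i (157 cells), first of 9 and of 10 classes with at least 50 cells. Below that minimum, where classes were not compared, it was 24075 CPM in IRF3/7 (13 cells) and 24847 CPM in COX2i + 5-AZA (37 cells). Other classes below the minimum were also high in IRF3/7, T_CD8 at 21805 CPM (8 cells) and Mast at 19169 CPM (3 cells). Elsewhere they were lower, with T_CD8 at 15669 CPM in COX2i + 5-AZA (7 cells) and Mast at 9250 CPM in CTRL (38 cells). Other macrophage classes were at 11483 (TAM_Spp1), 12307 (TAM_C1q) and 13912 CPM (TAM_cycling) in CTRL. NK cells were second in COX2i, at 16732 CPM (50 cells), and first of 7 classes in IRF3/7, at 13493 CPM. In COX2i + 5-AZA, TAM_cycling (15021 CPM) and NK cells (14917 CPM) were first and second of 14 classes. CCR7+ dendritic cells (DC3), at 7242 CPM in IRF3/7 and 9710 CPM in COX2i + 5-AZA, and neutrophils, at 9263 CPM in CTRL and 6798 CPM in COX2i + 5-AZA, were at the low end. The classes were made by clustering on the genes of these same cells, so differences between classes are given as descriptions.

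**Figure D3:**
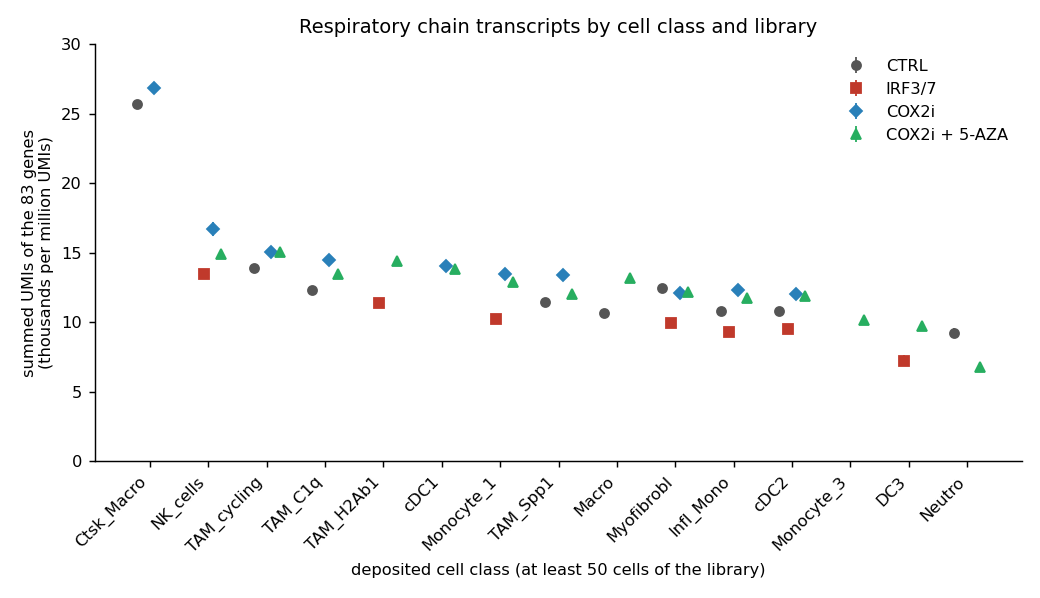
Summed CPM of the 83 genes (vertical axis, in units of 1000 CPM) by deposited class, with 1 point for each library that held 50 or more cells of it. Ctsk_Macro lies apart at 25660 CPM in CTRL and 26859 CPM in COX2i, and neutrophils and DC3 are lowest.

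Set against the other MoMac cells of its own library, the log2 ratio of the Ctsk_Macro sum was 1.03 (1.02 to 1.04) in CTRL and 0.88 (0.86 to 0.89) in COX2i. In CTRL 65 of 79 members were at least 1.5-fold higher, where 13.3% of all genes were, and in COX2i 58 of 81, where 14.7% of all genes were. Lower by that fold were 0 members in CTRL and 1, Cox4i2, in COX2i, where 27.9% and 27.1% of all genes were. The members' median was 0.91 and 0.83, and that of all genes -0.18 and -0.17. Complexes II and III led, with medians of 1.51 and 1.41 in CTRL and of 1.40 and 1.24 in COX2i, and all 4 complex II subunits passed in both libraries. Complex IV (1.00 and 0.87), the ATP synthase (0.94 and 0.83) and complex I (0.84 and 0.73) followed, and the Sdhaf genes were lowest (0.27 and 0.33). Sdha was at 923 CPM in Ctsk_Macro and 242 CPM in the others in CTRL (1.93, 1.88 to 1.99), and at 923 and 296 CPM in COX2i (1.64). Sdhc was at 1000 and 352 CPM in CTRL. The complex III genes Uqcrc1 (847 and 319 CPM) and Uqcrfs1 (597 and 208 CPM) and the ATP synthase gene Atp5b (540 and 208 CPM) were likewise higher in CTRL. Cox7a1 was at 50.9 and 15.8 CPM. Ndufa2, with 475 and 368 CPM, and Sdhaf2, with 65.3 and 64.0 CPM, differed little. Cox4i2 was not detected in this class, with 0 UMIs beside 979 of Cox4i1 in CTRL and 473 in COX2i, for which 3 counts would be 0.306% and 0.634% of the UMIs of both and the exact 95% upper limits are 0.376% and 0.777%.

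Other mitochondrial genes were read from lists of the same pathways. In Ctsk_Macro of CTRL, 15 of 16 genes of the citric acid cycle and pyruvate dehydrogenase were called higher (13 of 16 in COX2i), 7 of 15 metabolite carriers (6 of 15), 6 of 13 genes of mitochondrial DNA expression (4 of 13) and 15 of 45 assembly factors (15 of 45). The assembly list includes the 4 Sdhaf members, of which 0 were called higher in CTRL and 1 in COX2i. Of 9 regulators of mitochondrial biogenesis, 2 were higher and 3 lower in CTRL (median -0.29), and 2 higher and 1 lower in COX2i (-0.08). These shares stand beside 13.3% and 14.7% of all genes called higher, and 27.9% and 27.1% called lower, in CTRL and COX2i. The glycolysis list had medians of -0.39 and -0.34, and all 7 proliferation genes were lower in both. Of 5 subunits and carriers outside the naming rule, 3 were higher and 1 lower in both libraries. Among them Cyc1, which encodes cytochrome c1 of complex III, was at 442 and 128 CPM in CTRL. The regulators called higher were Ppargc1b and Esrra. Ppargc1b, the gene of PGC-1 beta, a coactivator of mitochondrial genes, was at 79.2 CPM in Ctsk_Macro and 4.96 CPM in the others in CTRL, and at 89.7 and 5.48 CPM in COX2i, log2 ratios of 4.00 and 4.03. Its partner Esrra was at 116 and 75.2 CPM in CTRL and at 132 and 69.6 CPM in COX2i, passing 1.5-fold in both. Ctsk itself was at 27454 and 62.1 CPM in CTRL. The cells of the class were deeper than MoMac cells as a whole, with medians of 9304 and 6260 UMIs in CTRL, and the part of depth in these values was not tested. Ctsk_Macro was 4.99% of MoMac cells and 13.2% of the members' MoMac UMIs in CTRL, against 2.13% and 4.68% in COX2i. Without it, the MoMac log2 ratio of the sum was 0.21 for COX2i, 0.10 for COX2i + 5-AZA and -0.39 for IRF3/7 against CTRL.

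**Figure D4:**
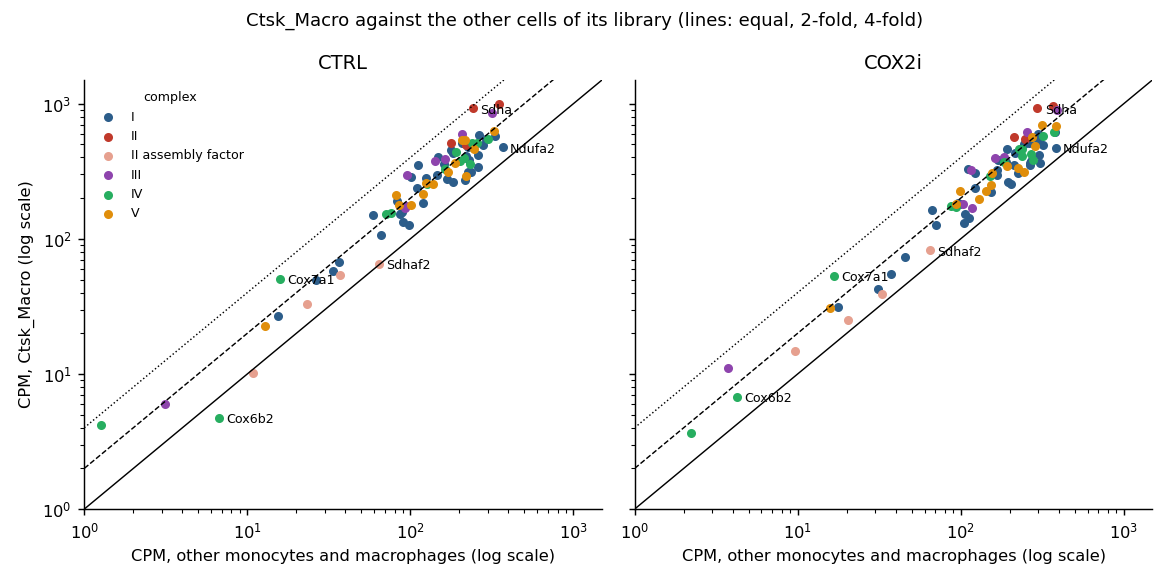
CPM of each member in Ctsk_Macro (vertical, log scale) against the other MoMac cells of the same library (horizontal, log scale), coloured by complex, with lines for equal, 2-fold and 4-fold levels. Most points lie between the equal and the 4-fold line, with Sdha at 923 and 242 CPM in CTRL near the 4-fold line and Sdhaf2 on the equal line, and Cox4i2 and Ndufa4l2 are not drawn.

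Alternative forms of complex IV subunits were among the members called between the drug libraries. Cox4i1 is the common form of subunit 4, and Cox4i2 (chr2:152754173-152765037) is a form known for its induction by low oxygen. In MoMac cells Cox4i2 was at 2.45 CPM in CTRL (134 UMIs), 0.616 in IRF3/7 (11), 3.93 in COX2i (246) and 11.5 in COX2i + 5-AZA (786), while Cox4i1 was at 136, 91.8, 154 and 145 CPM. Cox4i2 thus made up 1.77%, 0.667%, 2.49% and 7.35% (exact interval 6.86 to 7.86) of the UMIs of both. Since the probes of the paired genes differ, such shares are compared between libraries and classes and do not give the ratio of the transcripts. The higher share in COX2i + 5-AZA was also found within the large macrophage classes. In TAM_C1q the share was 2.28% in CTRL, 2.88% in COX2i and 5.95% in COX2i + 5-AZA, in TAM_Spp1 1.78%, 2.88% and 10.1%, and in TAM_cycling 1.83%, 2.27% and 6.70%. In these 3 classes the intervals of CTRL and COX2i overlapped, and that of COX2i + 5-AZA lay above both. The within-class log2 ratio of the Cox4i2 level between COX2i + 5-AZA and CTRL was 1.71 (1.30 to 2.14), 3.02 (2.32 to 3.79) and 2.15 (1.65 to 2.68) in those classes. In Monocyte_1 the share was 6.12% in COX2i (15 Cox4i2 UMIs) and 9.10% in COX2i + 5-AZA, with overlapping intervals. In Infl_Mono it was 1.64% in CTRL and 1.41% in COX2i, each on 1 Cox4i2 UMI, and 5.61% in COX2i + 5-AZA. Myofibrobl had 0.110% in CTRL, 1.52% in COX2i and 0.678% in COX2i + 5-AZA, on 1, 18 and 2 Cox4i2 UMIs. Ndufa4l2, also known for induction by low oxygen, had 14, 4, 13 and 67 MoMac UMIs in the 4 libraries and was below the count minimum throughout.

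Cox7a1 and Cox4i2 moved in opposite directions in COX2i + 5-AZA. Both were lower in IRF3/7 than in CTRL over MoMac, but Cox4i2, with 11 and 134 UMIs, was below the count minimum there. The part of the mix of classes in this was not tested. Cox7a1 was at 18.2, 4.48, 17.7 and 10.7 CPM in CTRL, IRF3/7, COX2i and COX2i + 5-AZA, against 76.3, 67.5, 95.1 and 98.5 CPM for Cox7a2, the form of other tissues. Its share of both was 19.3%, 6.23%, 15.7% and 9.83%. Within TAM_C1q it was 21.3%, 19.6% and 16.1% in CTRL, COX2i and COX2i + 5-AZA, and within TAM_cycling 16.1%, 13.6% and 9.18%. TAM_Spp1 had 14.9%, 16.7% and 9.84%, so there COX2i was not lower than CTRL. Cox7a2l, known as a factor of supercomplex assembly, was at 258, 164, 245 and 259 CPM. Of the remaining paired forms, Cox6a1 was at 175, 127, 190 and 176 CPM, with Cox6a2 between 0.952 and 2.25 CPM, and Cox6b1 at 215, 190, 242 and 240 CPM, with Cox6b2 between 3.36 and 6.57 CPM. Cox8a, at 209, 171, 233 and 224 CPM, and Atp5g3, at 90.7, 51.5, 103 and 97.5 CPM, were the form analysed here of their subunits.

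Ndufa4 (chr6:11900292-11907497) has a paralogue outside the naming rule, AA467197 (chr2:122636986-122641191), also called Nmes1, whose product can take the place of the Ndufa4 protein in complex IV and whose transcript is known to rise on inflammatory activation. Ndufa4 was at 128, 76.4, 117 and 75.4 CPM in MoMac cells of CTRL, IRF3/7, COX2i and COX2i + 5-AZA. AA467197 was at 205, 150, 363 and 627 CPM, so AA467197 rose with each drug group while Ndufa4 fell in COX2i + 5-AZA. The number of AA467197 UMIs per Ndufa4 UMI was 1.60, 1.96, 3.11 and 8.31. This was seen within the large macrophage classes. AA467197 was at 111, 272 and 422 CPM in TAM_C1q of CTRL, COX2i and COX2i + 5-AZA, at 453, 793 and 1323 CPM in TAM_Spp1, and at 197, 301 and 461 CPM in TAM_cycling. Ndufa4 was at 108, 114 and 77.7 CPM in TAM_C1q, at 86.5, 77.9 and 40.1 CPM in TAM_Spp1 and at 134, 118 and 89.8 CPM in TAM_cycling. The share of AA467197 in both was accordingly 50.5%, 70.5% and 84.5% in TAM_C1q, and 84.0%, 91.1% and 97.1% in TAM_Spp1. It did not go the same way everywhere: in cDC2 the share was 93.7% in CTRL, 95.1% in COX2i and 93.3% in COX2i + 5-AZA, and in IRF3/7 it was 77.4%. In Ctsk_Macro the share was 6.53% in CTRL and 12.9% in COX2i, the low end of the MoMac classes.

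**Figure D5:**
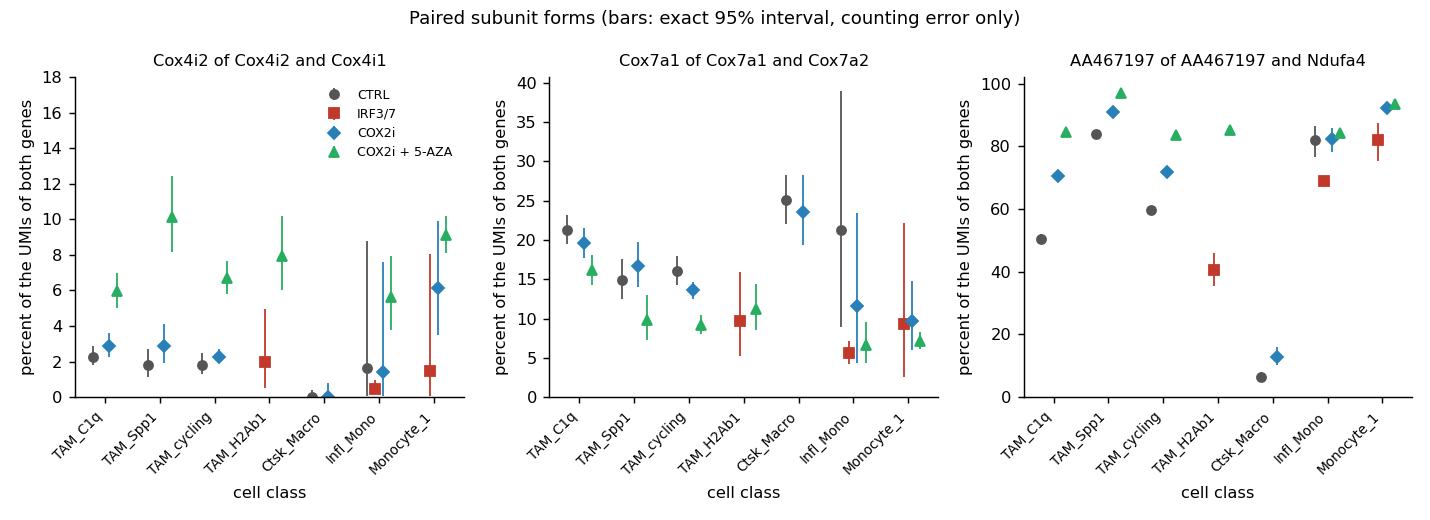
Percent of UMIs from Cox4i2 (of Cox4i2 and Cox4i1), Cox7a1 (of Cox7a1 and Cox7a2) and AA467197 (of AA467197 and Ndufa4) in 7 monocyte and macrophage classes, by library, with exact 95% intervals for counting error. In TAM_Spp1 of COX2i + 5-AZA, Cox4i2 reaches 10.1% and AA467197 97.1%, and Ctsk_Macro has the lowest share of AA467197.

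The surrounding pathways in MoMac cells put these values in place. In IRF3/7 against CTRL, 14 of 16 genes of the citric acid cycle and pyruvate dehydrogenase were called lower and 0 higher (median -0.85), with Idh3a, a subunit of isocitrate dehydrogenase, at 103 and 23.9 CPM. So were 10 of 13 genes of mitochondrial DNA expression (-0.97), 9 of 15 carriers (-0.65) and 23 of 45 assembly factors (-0.61), with 0, 1 and 1 higher. Beside the 46.2% of all genes called lower in this comparison, the shares of assembly factors, regulators and glycolysis genes lay near or below that of genes in general. Of 5 respiratory chain subunits outside the naming rule, 3 were lower (-0.80), and of 9 regulators 4 were (-0.51). Glycolysis genes had 5 lower and 1 higher of 13 (-0.48). All 7 proliferation genes were lower (-3.25), beside the 46.2% of all genes. In COX2i against CTRL the medians were 0.16 for the citric acid cycle, 0.18 for mitochondrial DNA expression, 0.21 for carriers, 0.07 for assembly factors, 0.41 for outside subunits and 0.07 for regulators, with at most 1 call in either direction. Glycolysis stood out from them, with 4 of 13 genes called higher and a median of 0.49, where 6.31% of all genes were called higher, and in COX2i + 5-AZA 5 of 13 with a median of 0.49, where 7.64% were. Pfkp, a phosphofructokinase gene, was at 112, 228 and 280 CPM in CTRL, COX2i and COX2i + 5-AZA, and Slc2a1, which encodes the glucose transporter GLUT1, at 148, 272 and 313 CPM. In COX2i + 5-AZA against CTRL the medians of these other lists lay between -0.16 and 0.07. Among 4 inflammatory genes, Acod1, which makes itaconate, was at 5.65, 205, 12.8 and 81.7 CPM in CTRL, IRF3/7, COX2i and COX2i + 5-AZA, and Nos2, which makes nitric oxide, at 6.84, 115, 8.94 and 127 CPM. The other members of this list were Sod2, at 187, 259, 184 and 335 CPM, and Hif1a, at 140, 135, 115 and 127 CPM. Against CTRL, 2 of the 4 were called higher in IRF3/7, 1 in COX2i and 3 in COX2i + 5-AZA. The shares of all genes called higher were 12.6%, 6.31% and 7.64%. The list's median was 2.27, 0.18 and 2.35 against CTRL and 1.77 for COX2i + 5-AZA against COX2i. Proliferation genes had a median of -0.26 with 0 calls in COX2i + 5-AZA against CTRL. All 7 were called lower against COX2i (-1.23), where 16.5% of all genes were. Acod1 and Nos2 were high in the libraries with many monocytes.

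In conventional type 2 dendritic cells (cDC2), Cox6a2, the muscle form of a complex IV subunit, was found at 1, 15, 10 and 19 UMIs in CTRL, IRF3/7, COX2i and COX2i + 5-AZA. These are levels of 0.359, 11.4, 2.98 and 14.5 CPM. Of 4 genes known from plasmacytoid dendritic cells, Siglech was at 1.08, 79.3, 6.86 and 23.6 CPM in the same cells, Ccr9 at 2.15, 29.7, 2.69 and 10.7 CPM and Bst2 at 348, 2865, 475 and 861 CPM. Tcf4 was at 97.3, 132, 85.3 and 86.1 CPM, below CTRL in both drug libraries. The part of such cells in the Cox6a2 counts was not tested.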

How the data were processed

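Single-cell RNA-seq libraries (10x Flex) had been made from sorted CD45+ cells, 1 library per group. The authors deposited unnormalized UMI counts, genes by cells, and an annotation of cell classes. Per the labels, Cell Ranger 7.1.0 had been run with the mouse probe set on mm10, cells kept by numbers of genes and by mitochondrial and ribosomal share, and ribosomal and mitochondrial genes removed, so subunits from mitochondrial DNA and the mitochondrial ribosome were not analysed here.

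Counts were summed over the cells of a library, or of a class in a library, and divided by the total (CPM). Levels have exact Poisson, ratios exact conditional and shares exact binomial 95% intervals, which cover counting error only. A call was a difference of at least 1.5-fold with at least 200 UMIs in the pair of libraries summed. Classes needed 50 cells in a library. The authors' tests over single cells were not used, since cells are not replicates. The log2 ratio with its interval and the fold calls were tested on simulated Poisson counts. Variation between cells or tumours was not simulated, and the other steps were not tested in this way. The software was Python 3.11.15, numpy 2.4.6, scipy 1.17.1 and pandas 2.3.3.

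Genes were named by rule: the 2 members with the most UMIs in each complex, the 3 highest and 3 lowest ratios of each comparison, the 4 Sdh subunits and members with a paralogous subunit. Others, such as Ndufs1, Atp5a1 and the genes named from lists, were chosen after their values were seen. The members and lists were chosen with earlier results of these data known. Alternatives were other scaling, count minimums, all cells, cells with over 2000 genes, equal weights for classes, per-cell shares, thinning and, chosen after seeing the data, sums without Ctsk_Macro and without the 4 Sdhaf genes. Coordinates are from GENCODE and RefSeq on GRCm38.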

Additional observations from a re-analysis of the deposited data

Results flagged for a closer look

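COX2i against CTRL gave a log2 ratio of the summed respiratory chain UMIs of 0.23 in TAM_C1q and -0.046 in Myofibrobl, opposite directions under the same contrast. COX2i + 5-AZA against CTRL gave 0.30 in Macro (105 and 73 cells) and -0.45 in Neutro (196 cells in COX2i + 5-AZA), again in opposite directions. With 1 library per group, neither difference between classes was tested.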

How the results depend on the processing

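No paired analysis was possible because each group had 1 library, and no replicate could be left out. Values are given in the order IRF3/7 against CTRL, COX2i against CTRL, COX2i + 5-AZA against CTRL and COX2i + 5-AZA against COX2i, where the log2 ratio of the sum was -0.47, 0.14, 0.01 and -0.14. It was 0.032, 0.11, 0.15 and 0.051 with median-of-ratios size factors, which turned the first and last, by construction, as they set the median gene near 0. It was -0.37, 0.13, -0.0031 and -0.13 in cells with over 2000 genes, -0.39, 0.12, 0.025 and -0.10 over all cells, and -0.22, 0.16, 0.15 and -0.079 with classes weighted equally, where the first rests on 1 class. It was -0.43, 0.18, 0.033 and -0.15 as a mean of per-cell shares, -0.40, 0.19, 0.042 and -0.14 with cells thinned to 2000 UMIs, and -0.39, 0.21, 0.10 and -0.11 without Ctsk_Macro. The median over members moved with size factors to -0.038 for IRF3/7, 0.13 for COX2i + 5-AZA against CTRL and 0.037 for the last comparison. Of these, COX2i + 5-AZA against CTRL changed sign from -0.013 and the last comparison from -0.15. With classes weighted equally the same comparisons gave -0.29, 0.15 and -0.086. Without Ctsk_Macro it moved to 0.22 for COX2i and 0.087 for COX2i + 5-AZA against CTRL. The values of 0.15 and 0.087 also have the opposite sign to -0.013. It moved to -0.44 with over 2000 genes in the first comparison and to -0.10 over all cells in the last. With size factors, IRF3/7 had 6 members lower and 3 higher, COX2i + 5-AZA 2 higher against CTRL and 1 lower against COX2i. No share of all genes called with size factors is given here. Members higher in IRF3/7 were 0 over all cells and 2 without Ctsk_Macro. For COX2i, 0 were lower in cells with over 2000 genes or over all cells, and 1 was higher over all cells. For COX2i + 5-AZA against CTRL, 2 were higher with minimums of 20 or 1 UMIs or without Ctsk_Macro, and against COX2i 2 were higher with those minimums. Leaving out the 4 Sdhaf genes moved none of 16 values beyond its limit. Except for the effect of size factors, the cause of these shifts was not tested.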
